A study of Mus musculus with 12 samples.

Results

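Levels of 7 genes of neuronal growth and cell signalling, Basp1, Crlf2, Eid2, Gdf10, Tagln3, Ptpro and Pde1b, were followed through 12 RNA-seq libraries of the mouse hippocampus. The members were chosen by their measured values in these same libraries, because they were higher in Chd8 mutant than in wild-type libraries of one or both sexes. Their differences between genotypes are therefore a description, given without a test, and are not evidence for an effect of the mutation. All 7 were found among the 46078 gene IDs of the table, and all 7 were among the 17496 genes with a mean normalized count of at least 10 to which the models were fitted.

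The study compared hippocampal RNA at postnatal day 25, in the C57BL/6 strain, between wild-type animals and heterozygotes for Asn2373LysfsX2, a frameshift mutation of the chromatin remodelling gene Chd8. The 4 groups of 3 libraries were wild-type males, heterozygous mutant males, wild-type females and heterozygous mutant females. Whether replicate libraries stem from different animals is not stated in the labels, so p-values below reflect only variation between libraries, part of which may be technical. Whole hippocampus holds many cell types, so that fewer cells of a type and less RNA per cell cannot be told apart.

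A level is given as a normalized count, which is the number of reads of a gene divided by 1 size factor per library. Recovered reads numbered 23721482 to 24654408 in mutant libraries and 26912998 to 33327314 in wild-type libraries, so depth and genotype cannot be told apart. Chd8, the mutated gene, averaged 2866 ± 122 (SD, n = 3) in wild-type males against 2438 ± 64.0 in their mutant counterparts. In females the means were 2870 ± 24.1 for wild type against 2472 ± 43.6 for mutants. All 10 pyramidal and all 8 dentate granule cell markers passed the minimum mean. A score of 10 choroid plexus markers, their mean log2 level, was 4.93 to 5.50 in wild-type female 1 and mutant males 2 and 3 but 9.52 to 11.2 in the other 9 libraries. Values without those 3 libraries are given for some members. Mutant male 1 is then the only mutant male library, so the male differences rest on that library.

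The 7 proteins act at several steps between the outside of a cell and its nucleus. Which cells of the hippocampus expressed each gene was not measured. Gdf10 is a secreted ligand of the TGF-beta superfamily, also called BMP3b, and such ligands signal through serine/threonine kinase receptors and SMAD proteins. Crlf2 is a cytokine receptor subunit that binds thymic stromal lymphopoietin together with the IL-7 receptor and signals through Janus kinases and STAT proteins. Ptpro is a receptor-type tyrosine phosphatase of neurons and kidney podocytes, and Pde1b is a phosphodiesterase that calcium and calmodulin activate to break down cyclic AMP and cyclic GMP. Eid2 is a small nuclear protein known as an inhibitor of differentiation that acts on histone acetyltransferase and SMAD activity. Basp1 is a membrane-attached protein of growth cones and nerve terminals, related in behaviour to Gap43 and Marcks, and Tagln3 is the neuronal relative of the actin-binding protein transgelin. Slc17a7, with which each was compared, encodes the vesicular glutamate transporter of most excitatory neurons of the hippocampus.

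The members lie at separate places in the genome (GRCm38 coordinates from GENCODE M21). No other gene ID of the table that has such coordinates overlaps any of them. Annotated genes absent from the table were not checked. Basp1 and Pde1b share chromosome 15, at chr15:25363277-25413764 on the minus strand and chr15:103503034-103530052 on the plus strand. Crlf2 lies at chr5:109554709-109558993 (minus), Ptpro at chr6:137252319-137463233 (plus), Tagln3 at chr16:45711230-45724608 (minus) and Eid2, a gene of 1 exon, at chr7:28267881-28269272 (plus), 8.47 kb from its relative Eid2b. Gdf10, at chr14:33923587-33937983 (plus), is on the chromosome of Chd8 but 18.3 Mb away from it.

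To see whether members that differ in the same direction share sequence at their starts, the stretches before their transcription starts were compared. The 120 bases before the start are shown for Basp1, Gdf10, Pde1b and Eid2, where the stretch ends at the gene start of both RefSeq (GRCm38.p6) and GENCODE and lies outside the gene in both. The RefSeq start of Ptpro, whose stretch also lies outside the gene but holds no GC box, falls before the GENCODE start, and it is not shown. Each runs 5′ to 3′ in the direction of transcription, and capitals mark the GC box GGGCGG or its complement CCGCCC, including runs where copies overlap.
Basp1: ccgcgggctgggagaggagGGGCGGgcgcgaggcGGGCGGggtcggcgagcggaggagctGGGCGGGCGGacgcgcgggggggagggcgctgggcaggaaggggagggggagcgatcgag
Gdf10: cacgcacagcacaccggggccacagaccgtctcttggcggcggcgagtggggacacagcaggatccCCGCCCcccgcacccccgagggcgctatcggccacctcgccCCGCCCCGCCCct
Pde1b: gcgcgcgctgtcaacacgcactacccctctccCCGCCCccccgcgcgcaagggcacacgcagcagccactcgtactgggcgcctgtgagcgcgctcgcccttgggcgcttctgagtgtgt
Eid2: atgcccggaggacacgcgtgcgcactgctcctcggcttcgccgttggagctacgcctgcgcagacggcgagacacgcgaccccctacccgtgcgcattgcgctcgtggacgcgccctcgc
These lie at chr15:25413765-25413884 (minus strand), chr14:33923467-33923586, chr15:103502914-103503033 and chr7:28267761-28267880 (all plus strand).

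The Basp1, Gdf10 and Pde1b stretches carry the GC box, in 1 or more copies, while the Eid2 stretch has none. Over the 250 bases before each start, searched on both strands, GGGCGG occurred in 4 of the 9 RefSeq start windows of the 7 members, those of Crlf2, Gdf10, Basp1 and the first start of Pde1b. It occurred in 32.7% of all 32851 start windows of the same length. The letters CCAAT were in the windows of Eid2 and Tagln3 and in 33.8% of all windows. The letters TATAAA (12.4% of all windows), CCGGAAG (6.91%, the core of ETS factor sites), TGACGTCA (1.55%, the cyclic AMP response element) and the palindromic NRF1 site of 10 letters (0.782%) were in 0 of the 9. No motif was thus common to all members. GC content of the 250 bases was 78.8% for Gdf10 and Basp1, 71.6% for Crlf2, 67.2% for the first start of Pde1b, 57.2% for Tagln3, 56% for Eid2 and 53.6% for Ptpro, against a median of 52.4% over all windows. Gdf10 had 35 CpG dinucleotides, Basp1 30 and Ptpro 3, against a median of 6. These letter matches are descriptions of the windows and do not show that a factor binds there.

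The levels of the members spanned a wide range. Per kilobase of exon, averaged over the 12 libraries, Basp1 had 4311 normalized counts and Tagln3 3140, below the 6541 of Slc17a7. Pde1b had 573, Eid2 480, Ptpro 288 and Crlf2 214, and Gdf10 was lowest with 79.5. The weakest count behind any member value was 262 reads, for Crlf2.

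The secreted ligand Gdf10 was higher in mutants of both sexes. In males its normalized count was 387, 348 and 371 in wild type and 429, 471 and 394 in mutants. In females it was 363, 369 and 415 in wild type and 473, 495 and 457 in mutants. Mutant and wild-type libraries did not overlap within either sex, although wild-type female 3 lay above mutant male 3. The log2 difference, mutant minus wild type on the log2(normalized count + 1) scale as all differences here, was 0.22 ± 0.08 (standard error) in males and 0.31 ± 0.08 in females, or 16.8% and 24.3%.

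Crlf2, the receptor subunit for thymic stromal lymphopoietin, showed the largest difference of the 7 averaged over both sexes, at 0.34 ± 0.07 on the log2 scale. Its normalized counts were 259, 284 and 283 in wild-type males and 351, 361 and 334 in mutant males. They were 296, 326 and 247 in wild-type females and 367, 378 and 349.6 in mutant females. All 6 mutant libraries lay above all 6 wild-type libraries. The difference was 0.34 ± 0.09 in each sex, 26.6% in males and 26.5% in females.

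Eid2, the nuclear inhibitor of differentiation, also separated the genotypes in every library. Normalized counts were 634, 611 and 623 in wild-type males and 726, 744 and 692 in mutant males, against 651, 648 and 616 in wild-type females and 709, 691 and 673 in mutant females. The lowest mutant library, mutant female 3, was above the highest wild-type library, wild-type female 1. The log2 difference was 0.21 ± 0.05 in males and 0.11 ± 0.05 in females, or 15.7% and 8.28%.

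Basp1, the growth cone protein, was separated between genotypes in males only. Normalized counts in males were 8014, 7512 and 7745 in wild type and 9041, 9109 and 9455 in mutants. In females they were 8983, 8048 and 8180 in wild type and 9910, 8716 and 9212 in mutants. Wild-type female 1 exceeded mutant female 2, so the female groups overlapped. The log2 difference was 0.25 ± 0.05 in males and 0.14 ± 0.05 in females, or 18.6% and 10.4%. Without the 3 libraries low in choroid plexus markers it was 0.22 ± 0.07, with mutant male 1 as the only mutant male, and 0.19 ± 0.05.

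**Figure D1:**
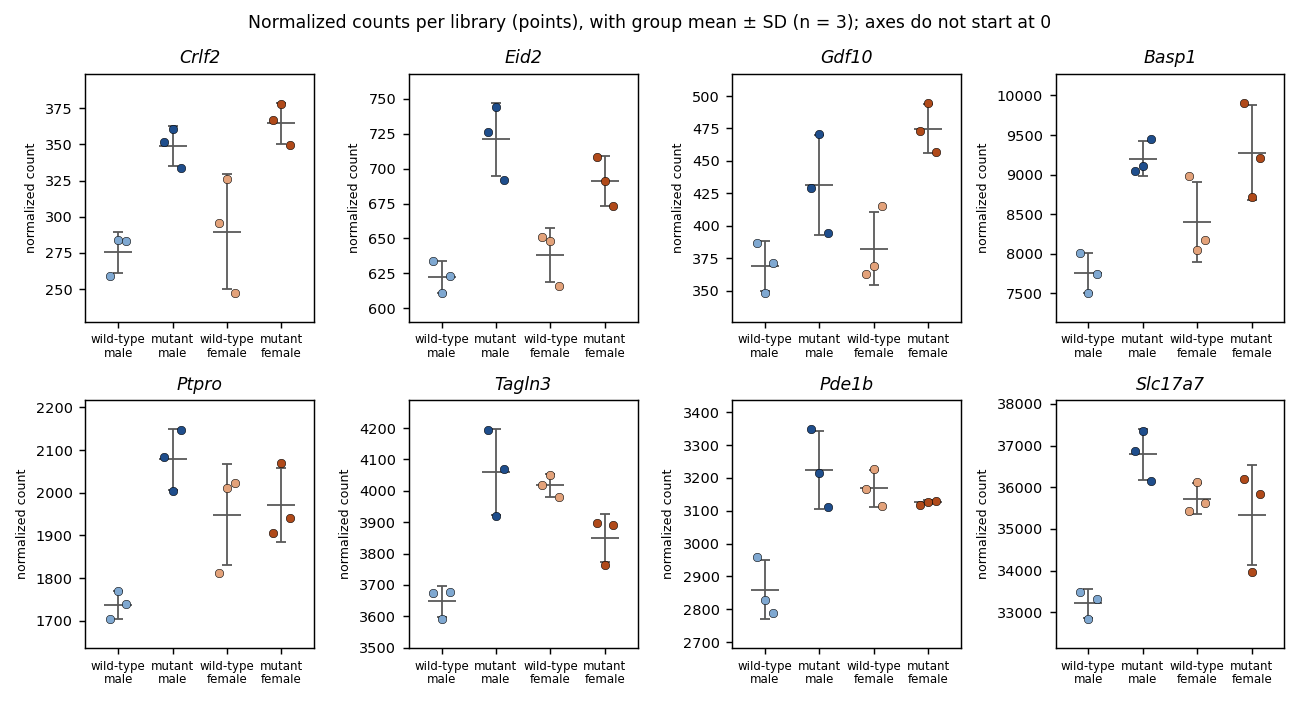
Normalized count (vertical axis, not starting at 0) of the 7 members and of Slc17a7 in each of the 12 libraries, as points, with the mean ± SD of each group of 3. Crlf2 and Eid2 have all 6 mutant libraries above all 6 wild-type libraries, whereas in Basp1, Ptpro, Tagln3, Pde1b and Slc17a7 the 3 wild-type male libraries are the lowest of the 12.

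Tagln3, the neuronal transgelin, had opposite directions in the sexes. Its normalized counts were 3676, 3590 and 3677 in wild-type males and 4192, 3919 and 4068 in mutant males. They were 4020, 4051 and 3980 in wild-type females and 3898, 3763 and 3891 in mutant females. Every mutant male was above every wild-type male and every mutant female below every wild-type female. The log2 difference was 0.15 ± 0.03 in males and -0.06 ± 0.03 in females, or 11.3% and -4.15%. Without the 3 libraries low in choroid plexus markers the male difference was 0.20 ± 0.04, with mutant male 1 as the only mutant male. The female one was -0.06 ± 0.04.

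Ptpro, the receptor-type phosphatase, differed in males and overlapped in females. Normalized counts were 1704, 1769 and 1739 in wild-type males and 2085, 2005 and 2146 in mutant males. They were 1812, 2011 and 2023 in wild-type females and 1905, 2070 and 1940 in mutant females. The log2 difference was 0.26 ± 0.05 in males and 0.02 ± 0.05 in females, or 19.6% and 1.23%, and the female value was -0.03 ± 0.05 without the 3 libraries.

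Pde1b, the calmodulin-activated phosphodiesterase, followed the same arrangement. Normalized counts were 2960, 2828 and 2789 in wild-type males and 3349, 3214 and 3112 in mutant males. They were 3166, 3226 and 3115 in wild-type females and 3119, 3127 and 3130 in mutant females. The log2 difference was 0.17 ± 0.04 in males, 12.8%, and -0.02 ± 0.04 in females, -1.35%. Over the 25 alternative settings the male value ran from 0.12 to 0.23. The label of the set, genes raised in mutants, thus describes Gdf10, Crlf2, Eid2 and Basp1 in both sexes by direction, and Tagln3 and Pde1b in males alone. The female value of Ptpro was above 0 but smaller than its standard error.

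The counts of separated members were read against all 17496 tested genes. In males all 7 members had every mutant library above every wild-type library, which 8.37% of all tested genes had. In females 3 members did so (Crlf2, Eid2 and Gdf10), against 5.14% of all genes, and 1 had every mutant below every wild-type library (Tagln3), against 5.66%. The same 3 members were separated upwards within both sexes, as were 0.532% of all genes. Crlf2 and Eid2 had all 6 mutant above all 6 wild-type libraries, as did 0.303% of all genes. Since the members were chosen on this contrast, nothing is read from these counts.

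Over all genes, limma with Benjamini-Hochberg adjustment called 1 gene between genotypes averaged over both sexes, or 0.00572% of those tested. That gene was Chd8, at a log2 difference of -0.22 and an adjusted p of 0.0289, and 1552 genes had an unadjusted p under 0.05. The call on Chd8 was lost with limma without a filter (adjusted p = 0.0538), with upper-quartile factors (0.0672), with the replicate block (0.131) and with Slc17a7 (0.921) or the myelin score (0.923) as a covariate. It was also lost without any 1 library (adjusted p up to 0.162) other than wild-type male 1 or mutant male 3. In males limma called 0 genes (0%, with 1807 at an unadjusted p under 0.05) and in females 0 genes (0%, with 1207). On the recovered reads edgeR called 1, 0 and 0 genes averaged, in males and in females, and DESeq2 75, 35 and 11. The median log2 difference of all tested genes was 0.0017 in males and 0.0011 in females.

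**Figure D2:**
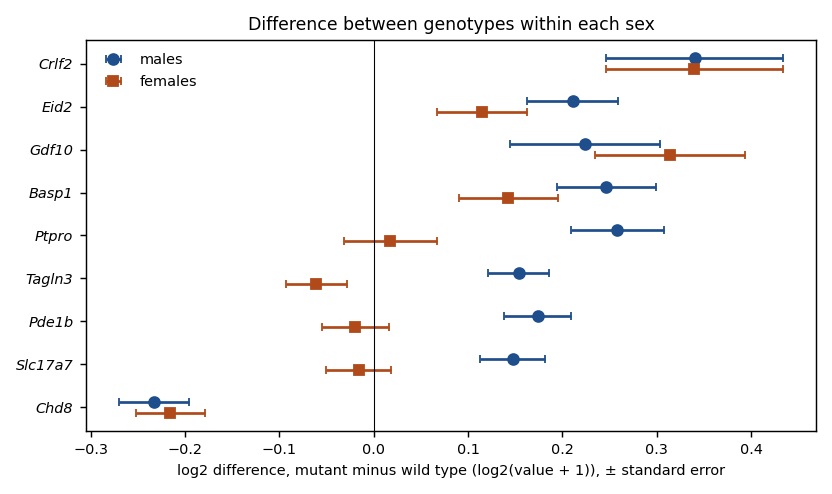
Log2 difference between mutant and wild type, mutant minus wild type on the log2(normalized count + 1) scale, in males (circles) and females (squares) with the standard error as bars. Crlf2 and Gdf10 lie well above 0 in both sexes, Tagln3, Ptpro, Pde1b and Slc17a7 lie above 0 in males and near or below 0 in females, and Chd8 lies below 0 in both.

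In 4 members, Basp1, Tagln3, Ptpro and Pde1b, the 3 wild-type male libraries were lower than all other 9 libraries. This arrangement was noticed after the values were seen, and it held for 1.01% of all tested genes and for Slc17a7. It includes the male difference, a contrast on which the members were chosen. Of the 1464 tested genes with every mutant male above every wild-type male, 176 had it. Nothing is read from the count of members. Wild-type females were at the level of mutant males for Tagln3, with 4017 ± 35.4 (SD, n = 3) and 4060 ± 137, and for Pde1b, with 3169 ± 55.7 and 3225 ± 119. Wild-type males averaged 3648 ± 49.9 for Tagln3 and 2859 ± 89.8 for Pde1b. In Crlf2, Eid2 and Gdf10, by contrast, the wild-type male and female libraries overlapped.

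The contrast between the sexes averaged over both genotypes is independent of the contrasts that chose the members, and was tested. None of the 7 members passed limma's threshold, against 12 of all tested genes (0.0686%), while edgeR called 12 genes and DESeq2 48, and 0 members passed in any of the 25 alternative settings. Their log2 differences, male minus female, ran from -0.10 ± 0.06 in Gdf10 (adjusted p = 0.822) to 0.01 ± 0.03 in Eid2 (adjusted p = 0.990). The smallest p was that of Pde1b, at -0.05 ± 0.03 with an unadjusted p of 0.0615 and an adjusted p of 0.763 by limma. At an unadjusted p under 0.05, 0 members passed.

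Slc17a7, against which the members were set, was itself high and low in the same groups as Tagln3 and Pde1b. Its normalized counts were 33498, 32830 and 33315 in wild-type males and 36860, 37362 and 36155 in mutant males, and 35420, 36134 and 35619 in wild-type females and 36207, 33958 and 35849 in mutant females. Every mutant male was above every wild-type male, and the female groups overlapped. The log2 difference was 0.15 ± 0.03 in males (limma adjusted p = 0.407) and -0.02 ± 0.03 in females (adjusted p = 0.963).

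Over the 12 libraries the log2 levels of Tagln3 and Pde1b had the highest Pearson's r with Slc17a7, 0.87 for both, with Spearman's rho of 0.73 and 0.71. By rank the order differed, and Eid2 and Basp1 were highest. Basp1 and Eid2 each had r of 0.73, with rho of 0.79 and 0.85, and Ptpro had r of 0.69 and rho of 0.60. Crlf2 (r = 0.52, rho = 0.59) and Gdf10 (r = 0.45, rho = 0.53) followed it least. These are descriptions over libraries that share genotype and sex groups, depth and size factors, and no p is given. Without wild-type males 2 and 3, the libraries farthest from the median of Slc17a7, r was 0.75 for Tagln3 and 0.74 for Pde1b. It was then 0.57 for Eid2, 0.51 for Ptpro, 0.49 for Basp1, 0.40 for Crlf2 and 0.11 for Gdf10. Of all tested genes, other members included, 4 followed Pde1b more closely than Slc17a7 did and 7 followed Tagln3 more closely. For Ptpro there were 146 such genes, for Eid2 175, for Basp1 221, for Crlf2 1281 and for Gdf10 1876. The members were chosen as higher in mutants, as Slc17a7 was in males, so nothing is read from these counts.

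Within groups the relation was weaker. On deviations from the 4 group means, which leave out the genotype contrast, r with Slc17a7 was 0.41 for Eid2 (exact permutation p = 0.266), 0.38 for Basp1 (p = 0.5), 0.35 for Tagln3 (p = 0.390) and 0.29 for Pde1b (p = 0.269). It was 0.14 for Gdf10 (exact permutation p = 0.655), 0.02 for Crlf2 (p = 0.919) and -0.52 for Ptpro (p = 0.126). Spearman's rho on the same deviations was 0.59 for Eid2 (exact permutation p = 0.118) and -0.56 for Ptpro (p = 0.104). The two-sided test permuted libraries within groups in 1296 arrangements. After adjustment over the 7 members no Pearson value was under 0.628 and 0 of 7 passed 0.05. Several values moved when libraries were left out. Without the 3 libraries low in choroid plexus markers, which leaves 72 arrangements, within-group r was 0.93 for Tagln3 (exact permutation p = 0.0278, adjusted over the members 0.0972). It was then 0.85 for Basp1 (exact permutation p = 0.111, adjusted 0.259) and -0.98 for Ptpro (p = 0.0139, the smallest these arrangements can give, adjusted 0.0972). The others were 0.32 for Eid2, 0.21 for Pde1b, -0.060 for Crlf2 and -0.32 for Gdf10. For Tagln3 r was 0.89 without mutant male 2 alone (exact permutation p = 0.0139, adjusted 0.0972). For Ptpro r was -0.96 without wild-type female 1 alone, with an exact permutation p adjusted over the members of 0.0162. Of 19 alternative settings this was the 1 in which a member passed 0.05. That p is not adjusted for the choice of setting.

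**Figure D3:**
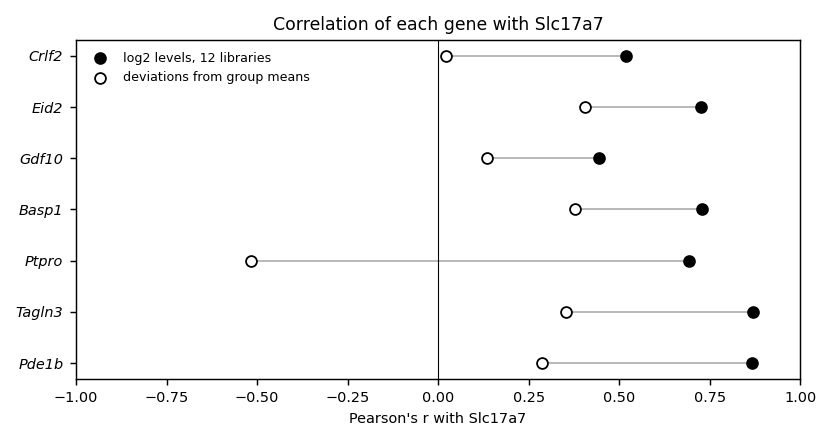
Pearson's r of each member's log2 level with that of Slc17a7 over the 12 libraries (filled points) and on deviations from the 4 group means (open points). Tagln3 and Pde1b reach 0.87 over all libraries, and Ptpro goes from 0.69 to -0.52 once group means are removed.

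Expressed as a percentage of Slc17a7 in the same library, a scale added after the values were seen, Tagln3, Pde1b, Ptpro and Gdf10 no longer separated the genotypes in males. Tagln3 was 10.98 ± 0.052% of Slc17a7 (SD, n = 3) in wild-type and 11.04 ± 0.48% in mutant males, and 11.2 ± 0.093% and 10.9 ± 0.16% in females. Its mutant female libraries all stayed below its wild-type female libraries on this scale, as in 2.9% of all tested genes. Pde1b was 8.61 ± 0.23% and 8.77 ± 0.28% in males and 8.87 ± 0.11% and 8.85 ± 0.31% in females. For Ptpro the male ratio was 5.23 ± 0.15% in wild type and 5.65 ± 0.29% in mutants, with 1 mutant library below 1 wild-type library.

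Basp1, Crlf2 and Eid2 were separated upwards on this scale in males, as were 0.697% of all tested genes. These 3 and Gdf10 were separated upwards in females, as were 5.83%, and the 3 in both sexes, as were 0.08%. The ratio uses the same counts on which the members were chosen, so nothing is read from these numbers of members. Crlf2 was 0.829 ± 0.049% of Slc17a7 in wild-type and 0.947 ± 0.022% in mutant males, and 0.811 ± 0.11% and 1.03 ± 0.071% in females, without overlap of the 6 mutant and 6 wild-type libraries. Eid2 was 1.87 ± 0.016% and 1.96 ± 0.040% in males and 1.79 ± 0.055% and 1.96 ± 0.079% in females. Basp1 was 23.4 ± 0.53% and 25.02 ± 0.98% in males and 23.5 ± 1.6% and 26.2 ± 0.98% in females. Gdf10 was 1.11 ± 0.047% and 1.17 ± 0.085% in males, which overlapped, and 1.07 ± 0.082% and 1.35 ± 0.098% in females. On the log2 scale the ratio of Crlf2 was higher in mutants by 0.19 in males and 0.36 in females, whereas that of Tagln3 differed by 0.0064 and -0.04.

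**Figure D4:**
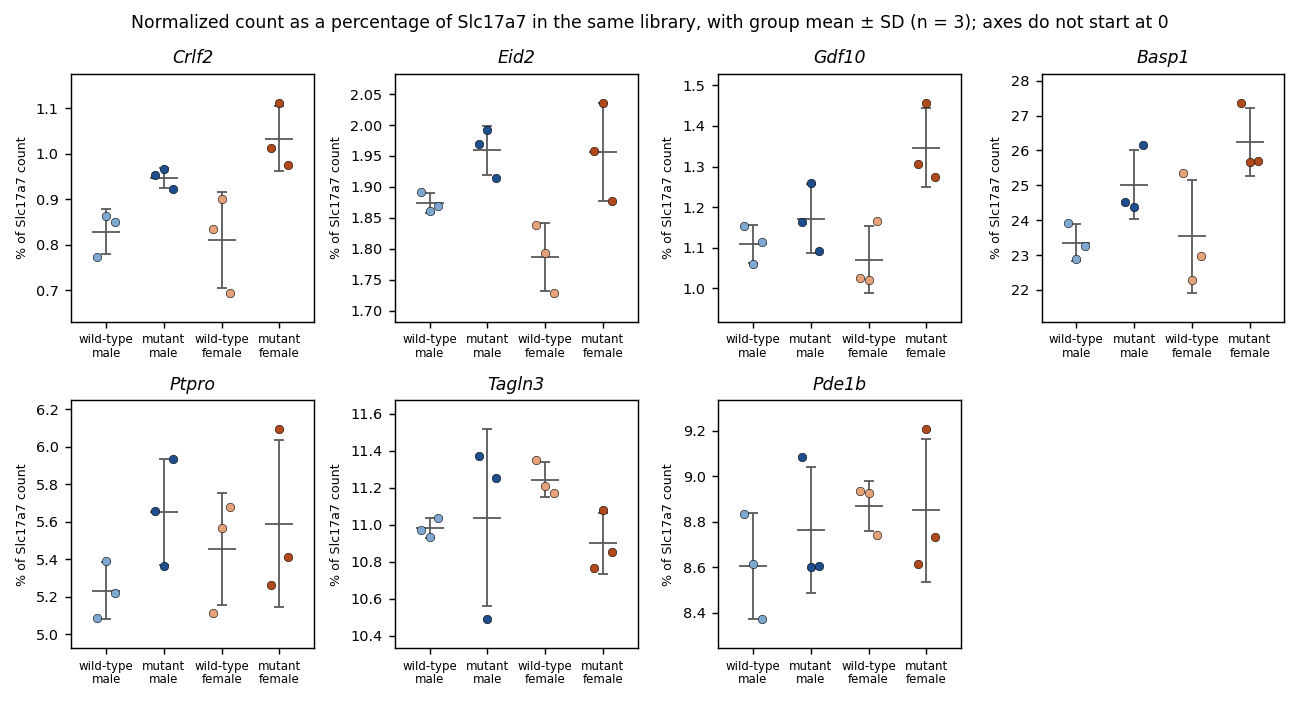
Normalized count of each member as a percentage of the Slc17a7 count of the same library (vertical axis, not starting at 0), with the mean ± SD of each group of 3. The 6 mutant libraries stay above the 6 wild-type libraries for Crlf2, and the groups overlap in males for Gdf10, Ptpro, Tagln3 and Pde1b.

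Members were also set against each other. Since all were chosen as higher in mutants, positive correlations over the 12 libraries follow in part from that choice and are a description. All 21 pairs of members correlated positively over the 12 libraries (r from 0.17 to 0.87). On deviations from group means 9 of the 21 were positive, from -0.76 for Basp1 with Ptpro to 0.57 for Crlf2 with Eid2. The gene most like Pde1b over the 12 libraries was Susd4 (r = 0.91), which was also second for Tagln3 (r = 0.91), after Rnaseh2b (0.92). Further named by the same rule of highest r were Emd (0.90) and Rpl23a (0.87) for Pde1b and Ankrd46 (0.91) for Tagln3. For Basp1 they were the cytokine gene Mif (0.93), Ppp1r3d (0.92) and Cmip (0.92), and for Ptpro Edf1 (0.91), Gng2 (0.86) and Tnfrsf21 (0.86). For Eid2 they were Sgip1 (0.94), Draxin (0.91) and Vstm2a (0.89). For Crlf2 they were Adamtsl2 (0.92), Pkn3 (0.91) and Arfgap3 (0.91), and for Gdf10 Tapbpl (0.92), Pparg (0.90) and Uba2 (0.90). Each was the highest of 17496 genes over 12 libraries, and these values carry no test.

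Of the 166 tested genes of the 11 pathway lists, members left out, limma called 0 between genotypes in males, in females or averaged. Of all 17496 tested genes it called 0, 0 and 1, so nothing is read from this about the pathways. At an unadjusted limma p under 0.05 were 19, 21 and 16 of the 166. Of all tested genes 1807, 1207 and 1552 were. On the recovered reads edgeR and DESeq2 also called 0 of the 166 in each contrast. Of all tested genes edgeR called 0, 0 and 1, and DESeq2 35, 11 and 75. The lists are described below by how many of their tested genes had a positive difference, where 50.6% of all tested genes had one in males and 50.5% in females.

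Around Gdf10, 7 of 14 other tested ligands of the BMP, GDF and TGF-beta family were positive in males and 13 of 14 in females, with median log2 differences of -0.005 and 0.13. The largest averaged values were those of Bmp5, at 0.57 ± 0.25, and Bmp7, at 0.26 ± 0.21, and the lowest were Bmp4, at -0.14 ± 0.11, and Tgfb2, near 0. Bmp7 differed in sign between the sexes, at -0.38 in males and 0.89 in females, as did Bmp6, at -0.58 and 0.93. All 10 choroid plexus markers did the same, with medians of -3.81 and 1.65, and their part in these values was not tested. The 3 libraries low in those markers were mutant males 2 and 3 and wild-type female 1. Of the receptors 7 of 13 were positive in males and 8 in females, led by the endothelial co-receptor Eng (0.22 ± 0.06) and by Acvrl1 (0.17 ± 0.08), with Tgfbr1 (-0.06 ± 0.04) and Bmpr1a (-0.03 ± 0.03) lowest. Of the secreted inhibitors 6 of 12 were positive in males and 11 in females, among them Fstl1 (0.23 ± 0.08) and Nbl1 (0.21 ± 0.10), with Grem1 (-0.03 ± 0.19) and Chrd (-0.02 ± 0.08) lowest. Of the SMADs and their target genes 7 of 14 were positive in males and 9 in females, with Smad7 (-0.08 ± 0.05) and Smad5 (-0.05 ± 0.03) lowest and Smad6 at 0.26 ± 0.17.

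Markers of meningeal fibroblasts moved with the female values of Gdf10 and its family. All 8 were positive in females, with a median log2 difference of 1.31, and 5 of 8 in males. Their mean log2 level was 8.36 to 8.86 in wild-type and 9.14 to 10.6 in mutant females, without overlap, and 8.70 to 9.65 in wild-type and 8.75 to 9.67 in mutant males. None of the 8 was at 0, and Igf2, the strongest, is a gene that choroid plexus also expresses. All 8 smooth muscle and pericyte markers were positive in females (median 0.76) and 7 of 8 in males (median 0.46), at a score of 8.19 to 8.48 in wild-type libraries and 8.24 to 9.82 in mutant libraries. Their part in the Gdf10 values was not tested.

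Around Crlf2, 14 of 17 genes of thymic stromal lymphopoietin and IL-7 receptor signalling reached the minimum mean. The ligand genes Tslp, at 6.66 normalized counts on average, and Il7, at 2.57, did not, and neither did Il2rg. Of the tested genes 7 were positive in males and 10 in females, with medians of -0.03 and 0.05. The kinase Jak1 had every mutant above every wild-type library in both sexes, at 0.06 in males and 0.07 in females on the log2 scale. The largest averaged differences were those of Jak3 (0.19 ± 0.09) and Tyk2 (0.07 ± 0.04), and the lowest were those of the feedback inhibitors Cish (-0.33 ± 0.25) and Socs3 (-0.28 ± 0.19). Il7r, the partner subunit, averaged 20.8 normalized counts, at -0.08 in males and -0.14 in females.

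Around Eid2, 6 of 10 tested genes of its family and protein partners were positive in males and 5 in females. Its neighbour and relative Eid2b had the largest averaged difference, 0.07 ± 0.07, followed by Smad4 (0.05 ± 0.03), and Rb1 (-0.04 ± 0.04) and Hdac1 (-0.01 ± 0.05) were lowest. The median over the 10 was 0.02 in males and 0.003 in females.

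Around Basp1, 22 of 28 tested genes of neurite growth and the growth cone were positive in males and 7 of 28 in females, with medians of 0.06 and -0.03. The largest averaged values were those of Crmp1 (0.09 ± 0.03) and L1cam (0.09 ± 0.08), and the lowest those of Cntn2 (-0.22 ± 0.07) and Stmn1 (-0.12 ± 0.07). Gap43, which resembles Basp1 in its action at the membrane, had 0.08 in males and 0.05 in females. In Crmp1, as in Basp1, the wild-type males were the lowest 3 libraries. Among relatives of Tagln3 the smooth muscle genes Cnn1 and Tagln had averaged differences of 1.59 ± 0.52 and 0.74 ± 0.32, and the lowest were Cnn3 (-0.02 ± 0.05) and Tagln2 (0.09 ± 0.06). Cnn1 and Tagln are also on the list of smooth muscle markers.

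Around Ptpro, 13 of 17 other receptor-type tyrosine phosphatases were positive in males and 12 in females, with medians of 0.07 and 0.03. Ptprb, of the vascular endothelium, led with 0.23 ± 0.11, followed by Ptprm (0.09 ± 0.04), and Ptprc (-0.09 ± 0.08) and Ptprd (-0.09 ± 0.04) were lowest. Around Pde1b, 10 of 17 other phosphodiesterases were positive in males and 9 in females, from Pde8a (-0.19 ± 0.07) and Pde4c (-0.12 ± 0.10) to Pde11a (0.14 ± 0.14) and Pde5a (0.15 ± 0.09). Pde1a, the close relative of Pde1b, had 0.13 in males and 0.09 in females. Of the calmodulin and cyclic nucleotide signalling genes 21 of 22 were positive in males and 9 in females, with medians of 0.08 and -0.02. In males 6 of the 22 had every mutant above every wild-type library, among them Prkaca, Prkacb, Gucy1a1 and Prkg1, against 8.37% of all tested genes, and in females none did. The averaged values ran from Adcy1 (-0.07 ± 0.09) and Prkg2 (-0.02 ± 0.15) to Gucy1a1 (0.12 ± 0.06) and Prkg1 (0.15 ± 0.06).

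Markers of some neuron types differed mainly in males, and those of myelin in both sexes. Of 10 pyramidal neuron markers 9 were positive in males (median 0.15) and 6 in females (median 0.0077). Slc17a7, Neurod2 and Nrgn had the 3 wild-type males lowest, as Basp1, Tagln3, Ptpro and Pde1b did. All 8 immature neuron markers were positive in males, with a median of 0.16, and 4 of 8 in females, with a median of 0.05. Dentate granule cell markers were positive for 4 of 8 in males (median 0.0080) and CA1 pyramidal markers for 2 of 5 (median -0.0024). All 12 oligodendrocyte markers were lower in mutant than in wild-type means in each sex, with medians of -0.25 in both, although none passed the test. Their mean log2 level was 13.463 to 13.606 in wild-type and 13.130 to 13.505 in mutant males, which overlapped. In females it was 13.622 to 13.823 in wild type and 13.389 to 13.608 in mutants, without overlap. Their part in the members' differences was not tested. The fit with the myelin score as a covariate gave averaged differences of 0.31 ± 0.11 for Crlf2, 0.26 ± 0.09 for Gdf10, 0.16 ± 0.06 for Basp1 and 0.13 ± 0.05 for Eid2. It gave 0.21 ± 0.05 for Ptpro, above the 0.14 ± 0.04 without it, 0.05 ± 0.04 for Pde1b, against 0.08 ± 0.03, and 0.03 ± 0.04 for Tagln3, against 0.05 ± 0.02. Striatal markers, among them those of cells known to be rich in Pde1b, had medians of 0.02 in males and -0.001 in females.

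With the level of Slc17a7 as a covariate the male differences of Basp1, Eid2, Tagln3 and Pde1b were smaller, at 0.12 ± 0.12, 0.13 ± 0.12, 0.10 ± 0.08 and 0.12 ± 0.09. That of Ptpro was larger, at 0.42 ± 0.11, while Crlf2 kept 0.33 ± 0.23 and Gdf10 had 0.16 ± 0.20. The standard errors were more than 2 times those without the covariate for all 7.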

How the data were processed

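RNA of 12 hippocampus libraries, 3 per group of sex and Chd8 genotype, was prepared, per the labels' protocols, with Illumina's TruSeq v2 kit, which does not keep strand. Tools listed by the submitters' processing notes, with no roles, were DESeq2, HTSeq, TopHat2 2.1.0 and Trimmomatic 0.35, on build GRCm38. No source used here names the annotation release. The deposited signal of a gene is its read count over a size factor common to the library, as the values themselves show: every value was a whole multiple of 1 step per library (100% whole within 1e-06 reads). The table held 0 columns of other samples. Of 46078 IDs, 45143 had a symbol.

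Values were transformed as log2(value + 1), so differences of low genes are understated. The 17496 genes averaging 10 or more were fitted with limma 3.58.1 in R 4.3.3 (trend option, 1 mean per group, Benjamini-Hochberg over all tested genes, threshold 0.05). The fit was tested on simulated data with differences larger than those of the members, in mutants of both sexes. That test does not bear on differences of the members' size. The design had named edgeR for raw counts and this fit for values already divided by size factors. Alternatives were edgeR 4.0.16 and DESeq2 1.42.0 on recovered reads, other scalings, filters, pseudocounts and covariates, and leaving libraries out. Within groups, libraries differed by more than sampling noise (chi-square per degree of freedom 3.22 to 27.6). Depth covers counting error only.

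Members, gene lists and tests were chosen with earlier results of these data known. Named are the members, Slc17a7, Chd8, the 3 genes most like each member, the 2 highest and 2 lowest genes of each pathway list by averaged difference, and the strongest gene of a marker list. Some genes that this rule names are not reported here. Other genes were named after their values were seen. Promoter windows are those of RefSeq (all 7 members matched).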

Additional observations from a re-analysis of the deposited data

Results flagged for a closer look

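Tagln3 had opposite genotype differences in the sexes. Every mutant male library was above every wild-type male library and every mutant female library below every wild-type female library. The male difference exceeded the female one by 0.22 ± 0.05 on the log2 scale. Tagln3 was chosen on these contrasts, so the difference was not tested. Ptpro (0.24 ± 0.07) and Pde1b (0.19 ± 0.05) had values of similar size with overlapping female groups, and Slc17a7, which is no member, had 0.16 ± 0.05.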

How the results depend on the processing

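The averaged genotype difference of each of the 7 members was positive in all 25 alternatives, and with Slc17a7 or the myelin score as a covariate that of Ptpro was 0.21 in both, against 0.14. The male differences were positive in all 25 for all 7, whereas the female Ptpro value ran from -0.03 to 0.09. Genes past the threshold averaged over both sexes numbered 0 without a filter, with upper-quartile factors and with either covariate of the previous sentence, 75 with DESeq2 and 82 without the 3 libraries low in choroid plexus markers (added after seeing the data), against 1. Leaving out 1 library at a time gave 0 to 8, the 8 without mutant male 3. In males the numbers were 35 with DESeq2 and 12 without the 3 libraries, and 0 to 1 with 1 library left out. In females they were 11, 1 and 0 to 1. Between the sexes they were 48 and 34, and 11 to 18, against 12. On the ratio to Slc17a7 (added later) 3 members were separated in males, against 7. With TMM or upper-quartile factors the separated members were the same, except that Pde1b joined Tagln3 among those lower in mutant females with upper-quartile factors. Without the 3 libraries low in choroid plexus markers, 1 mutant male library was left. The cause of these changes was not tested.

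The sex difference of Eid2 was -0.015 and that of Ptpro 0.014 with the myelin score, and with 1 library left out that of Eid2 ran from -0.00034 to 0.027. The within-group r with Slc17a7 ran from -0.17 to 0.63 for Basp1, -0.20 to 0.34 for Crlf2, -0.10 to 0.69 for Gdf10 and -0.072 to 0.89 for Tagln3 with 1 library left out. The lowest Basp1 and Tagln3 values were those without mutant female 2. Without the 3 libraries r was -0.060 for Crlf2, -0.32 for Gdf10, 0.85 for Basp1, 0.93 for Tagln3 and -0.98 for Ptpro. Leaving out 1 library gave 0 to 1 members past the threshold, the 1 being Ptpro. Replicate numbers did not pair the samples: of 18 same-numbered pairs 4 correlated above 0.1 (range -0.58 to 0.29), and with the replicate block 0 genes passed averaged over both sexes, against 1. With 3 libraries a group, both the spread between libraries and, for the members with the fewest reads, Crlf2, Gdf10 and Eid2, counting error limit differences of a few percent.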

Other observations

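Other marker lists bear on which cells the libraries held. Of 10 inhibitory neuron markers 9 had a positive genotype difference in males and 8 in females, with median log2 differences of 0.05 and 0.09. Of 9 astrocyte markers 8 were positive in males and 4 in females, and of 8 microglia markers 7 and 5. All 8 endothelial markers were positive in females, with a median of 0.16, and 5 of 8 in males. Dentate granule cell markers were positive for 4 of 8 in each sex, CA1 markers for 2 and 4 of 5, markers of thalamus and habenula for 4 of 7 in each sex, and neocortex markers for 4 and 2 of 7. All 10 choroid plexus markers had lower means in mutant than in wild-type males (median -3.81) and higher means in mutant females (median 1.65). These medians include mutant males 2 and 3 and wild-type female 1, the 3 libraries low in these markers, at scores of 4.93 to 5.50. Mutant male 1, at 11.1, lay within the wild-type male range of 10.9 to 11.2. Ttr ranged from 167 to 156059 normalized counts over the 12 libraries. Immature neuron markers were positive for 8 of 8 in males (median 0.16) and 4 of 8 in females (median 0.05). Among them Draxin, an axon guidance protein, had 0.47 in males and 0.13 in females. The granule neuron transcription factor Neurod1 had 0.27 and 0.10. Draxin was also among the 3 genes most like Eid2 over the 12 libraries.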
